A study of Mus musculus with 15 samples.

Results

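Klf2, Klf3, Klf4, Klf5, Klf9 and Klf13 were chosen by symbol, as 6 of the 49585 genes in the deposited count table, and all 6 had enough counts to be among the 15223 genes tested. Their RNA was measured in 15 libraries from mouse E14 embryonic stem cells, a wild-type line, with 3 libraries for each of 5 media. All cells had been maintained on gelatin with 0.4 µM PD0325901, an inhibitor of MEK, 3 µM CHIR99021, an inhibitor of GSK3, and 4 ng/ml Lif, a cytokine that acts through STAT3. For the experiment, 2000 cells were set in each µl of Matrigel low in growth factors, and N2B27 medium with 1 of 5 additions was laid over the gel. These were PD032+ Aurka inh (called the combination below), PD032, Aurka inh (an inhibitor of Aurora kinase A), FGF2/Activin (also written as FAK) and 2iLif. FAK and PD032 are not spelled out in the labels, which also leave the Aurora compound, the doses in the gel and the culture time unstated. No group had N2B27 alone.

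Klf genes encode Krüppel-like factors, transcription factors that share zinc fingers at the C-terminal end and bind GC-rich and CACCC sequences. In mouse embryonic stem cells, Klf2, Klf4 and Klf5 are known as members of the naive pluripotency network, in which Lif signalling through STAT3 raises Klf4, and MEK and ERK activity lowers the stability of the Klf2 protein. Klf3 is known mainly as a repressor that recruits CtBP, and Klf9 and Klf13 as factors that can recruit the Sin3a co-repressor. Only RNA was measured here.

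The members lie on 6 different chromosomes, given on mm10 with GENCODE M21 coordinates, and all are protein-coding. Klf2 (ENSMUSG00000055148) spans 72319033 to 72321656 on chromosome 8, plus strand. Klf4 (ENSMUSG00000003032) spans 55527143 to 55532466 on chromosome 4, minus strand. Klf5 (ENSMUSG00000005148) spans 99298691 to 99315036 on chromosome 14, plus strand. Klf3 (ENSMUSG00000029178) spans 64803388 to 64832901 on chromosome 5, plus strand. Klf9 (ENSMUSG00000033863) spans 23141226 to 23168134 on chromosome 19 and Klf13 (ENSMUSG00000052040) 63886351 to 63938915 on chromosome 7, on the plus and minus strand. Values are counts over whole genes. An opposite-strand transcript, Gm20033, shares 404 bases of exon with Klf3. It held 286 counts over all libraries, against 25717 for Klf3, and without a stated strand setting the reads of this stretch cannot be told apart.

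The sequences before the start of Klf2 and Klf4, the members with the widest ranges over the media, and of Klf9, a member with a narrow range, are shown for comparison. They come from RefSeq (GRCm38.p6), which had an entry for 5 of the 6 members, and each ends before the first annotated exon. Capitals mark matches to 3 motifs, searched on both strands. The GC box was spelled GGGCGG. The CACCC box was searched by the letters of its name. The pair of STAT half-sites was spelled TTCNNNGAA. The stretches are chr8:72318812-72319032 on the plus strand for Klf2, chr4:55532476-55532725 on the minus strand for Klf4 and chr19:23140976-23141225 on the plus strand for Klf9, each printed 5′ to 3′.
Klf2: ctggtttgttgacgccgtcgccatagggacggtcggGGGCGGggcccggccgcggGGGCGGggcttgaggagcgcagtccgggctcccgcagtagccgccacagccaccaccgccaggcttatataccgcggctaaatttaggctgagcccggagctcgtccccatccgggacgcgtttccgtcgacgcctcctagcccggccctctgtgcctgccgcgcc
Klf4: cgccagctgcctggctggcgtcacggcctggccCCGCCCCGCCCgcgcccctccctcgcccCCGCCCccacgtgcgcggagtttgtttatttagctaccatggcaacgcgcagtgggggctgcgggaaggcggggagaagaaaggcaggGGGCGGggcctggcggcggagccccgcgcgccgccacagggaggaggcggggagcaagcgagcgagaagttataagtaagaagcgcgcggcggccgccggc
Klf9: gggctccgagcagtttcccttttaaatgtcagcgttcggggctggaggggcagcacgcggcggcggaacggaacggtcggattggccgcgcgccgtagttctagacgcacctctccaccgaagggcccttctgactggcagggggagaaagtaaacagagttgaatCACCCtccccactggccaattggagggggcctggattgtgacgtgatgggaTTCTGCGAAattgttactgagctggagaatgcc
The Klf2 stretch of 221 bases was 71.5% G or C and held 2 GC boxes. The Klf4 stretch of 250 bases was 74.0% G or C and held 4 GC boxes, the first 2 sharing a base. The Klf9 stretch was 59.6% G or C and held 1 CACCC box and 1 STAT pair. Over the 250 bases before the RefSeq start, Klf3 had 6 GC boxes and 5 CACCC boxes and Klf13 had 3 and 1. Klf2 had 2 and 1 over this window, and its CACCC box is not within the shorter stretch shown. Among 32851 promoters of that length, 32.7% held a GC box, 52.0% a CACCC box and 7.02% a STAT pair, so GC and CACCC boxes are common. The matches describe letters in these windows and were not tested for binding.

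Library totals ran from 15199507 to 24202544 counts. No replicate pair was alike within counting noise (chi-squared over its degrees of freedom, 1.24 to 19.2), and each library was used as 1 sample. Nothing in the labels says that replicates came from separate cultures, so the p-values cover just the spread among libraries, possibly a technical one. File names in the labels have one form for the inhibitor groups and a different form for FGF2/Activin and 2iLif. Between these sets, whatever goes with the naming form and the effect of the medium cannot be told apart. All 7 stem cell markers (among them Pou5f1 and Sox2) were above 1 CPM in each group, and their sum lay between 2211 and 2854 CPM. Summed fibroblast markers lay between 4.13 and 6.45 CPM in the combination, 9.72 and 12.4 in PD032, 12.5 and 19.6 in Aurka inh, 18.97 and 20.6 in FGF2/Activin, and 2.47 and 3.04 in 2iLif. Thy1 made up most of this sum in the inhibitor groups, and Lum was at 0 in 4 of the 5 groups. Primitive endoderm markers summed to at most 6.69 CPM, and Cdh5, a defining endothelial gene, averaged at most 0.0174 CPM. The part of these cells in the Klf values was not tested. The sum of trophoblast markers, though not each marker, had the order of groups of Klf5. It lay between 40.5 and 60.4 CPM in the combination, 27.5 and 30.7 in PD032, 21.5 and 26.3 in Aurka inh, 19.2 and 22.1 in FGF2/Activin, and 68.7 and 70.3 in 2iLif. Tfap2c and Eomes made up most of these sums. Tfap2c had this order, from 1.74 CPM in FGF2/Activin to 46.1 in the combination and 53.7 in 2iLif. Eomes did not, averaging 5.89 CPM in the combination, 12.8 in FGF2/Activin and 13.1 in 2iLif. Krt7 was highest in FGF2/Activin, at 5.41 CPM, and lowest in the combination, at 0.525 CPM. Elf5, a defining trophoblast gene, reached at most 0.192 CPM in any library. Endothelial sums were led by Pecam1, which averaged 131 CPM in the combination, 78.4 in PD032, 79.7 in Aurka inh, 39.6 in FGF2/Activin and 92.8 in 2iLif.

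Klf2, a naive network factor, spanned a 42.3-fold range of group means, with values in CPM, counts scaled to library size with TMM factors. It stood at 239, 252 and 234 CPM in the combination, 89.9, 87.0 and 93.8 CPM in PD032, 100.4, 147 and 89.1 CPM in Aurka inh, 6.23, 5.23 and 7.09 CPM in FGF2/Activin, and 259.5, 259 and 265 CPM in 2iLif. The FGF2/Activin libraries were far below all others, PD032 and Aurka inh overlapped, and the combination lay just under 2iLif without overlap. In bulk RNA, fewer cells with Klf2 and less Klf2 RNA per cell cannot be told apart, and this holds for every level below.

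Klf4, a direct target of Lif and STAT3 signalling and a factor used to reprogramme somatic cells, had the widest range, 88.9-fold. It stood at 49.3, 47.1 and 48.6 CPM in the combination, 14.5, 12 and 16.3 CPM in PD032, 17.1, 16.3 and 13.6 CPM in Aurka inh, 3.60, 3.89 and 3.90 CPM in FGF2/Activin, and 336, 329.7 and 347 CPM in 2iLif. The 2iLif libraries were set apart at the top, the combination formed a step of its own, and PD032 and Aurka inh overlapped well below it. In FGF2/Activin these levels rest on 55 to 61 counts per library.

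Klf5, which supports self-renewal beside Klf2 and Klf4 and is needed in the early mouse embryo, had a 6.12-fold range. It stood at 76.4, 64.9 and 73.1 CPM in the combination, 48.0, 40.9 and 43.7 CPM in PD032, 39.3, 35.0 and 34.0 CPM in Aurka inh, 25.4, 27.0 and 29.4 CPM in FGF2/Activin, and 172, 166 and 163 CPM in 2iLif. No group overlapped its neighbour in this order. Each step of the order passed the test, with the adjusted p between neighbours at most 0.0069 (edgeR quasi-likelihood test, Benjamini-Hochberg over all genes tested, used for every adjusted p here).

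Klf3 had a 2.73-fold range. It stood at 108, 103 and 104 CPM in the combination, 86.0, 79.1 and 83.9 CPM in PD032, 79.3, 75.1 and 69.0 CPM in Aurka inh, 52.3, 56.3 and 55.3 CPM in FGF2/Activin, and 159, 149 and 139.6 CPM in 2iLif. Its order of groups was that of Klf5, with an overlap only between PD032 and Aurka inh.

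Klf9 and Klf13 varied least, over 1.5-fold and 1.4-fold, and both were highest on average in the combination. Klf9 stood at 186, 174 and 183 CPM in the combination, 164, 161 and 160.4 CPM in PD032, 129, 127 and 116 CPM in Aurka inh, 115, 123 and 122 CPM in FGF2/Activin, and 179, 175 and 168 CPM in 2iLif. Klf9 thus fell into a higher set of 3 media and a lower pair, Aurka inh and FGF2/Activin, whose difference did not pass (95% interval of the log2 difference -0.06 to 0.15, adjusted p = 0.46). Klf13 stood at 159, 136 and 156 CPM in the combination, 145, 123 and 144 CPM in PD032, 141, 123 and 129 CPM in Aurka inh, 106, 109 and 108 CPM in FGF2/Activin, and 139, 138 and 138 CPM in 2iLif. Only FGF2/Activin stood apart for Klf13, and in the order of the other 4 groups each overlapped its neighbour, with adjusted p from 0.17 to 0.9.

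**Figure D1:**
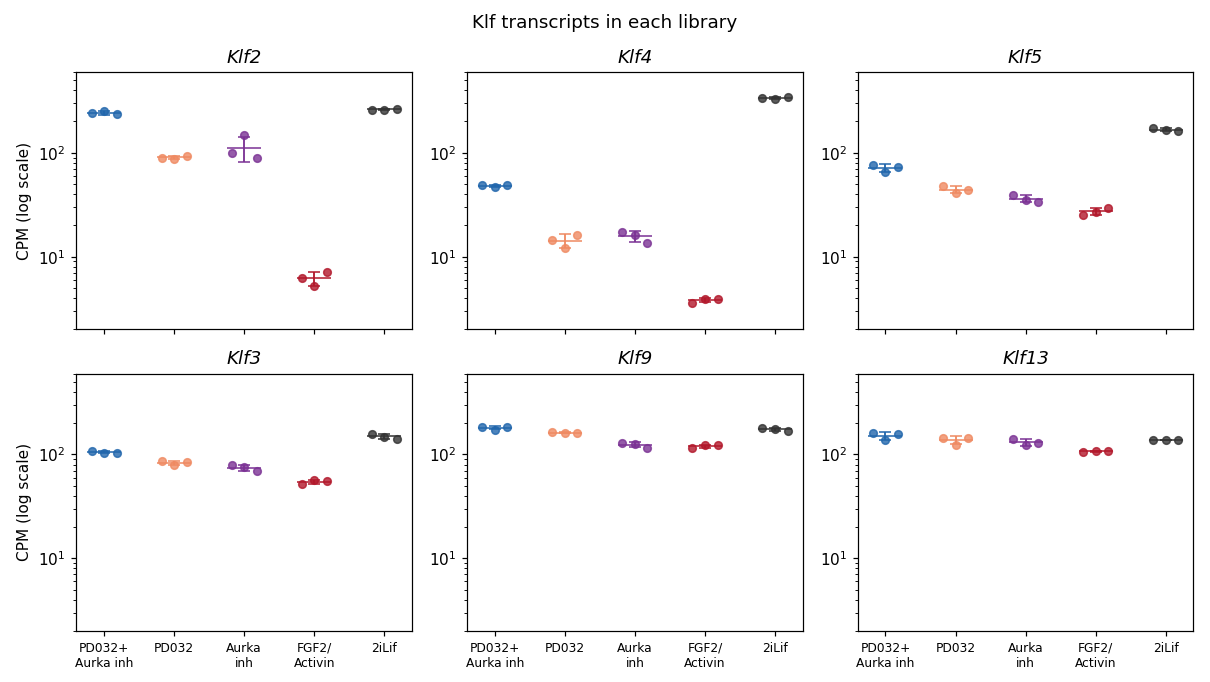
CPM (log scale) of the 6 Klf genes in each library, by medium, with 1 point per library, a dash at the group mean and bars of 1 SD (n = 3). Klf2, Klf4 and Klf5 span the widest ranges, from 6.18, 3.80 and 27.3 CPM on average in FGF2/Activin to 261, 338 and 167 CPM in 2iLif, while Klf9 and Klf13 stay between 107 and 181 CPM.

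FGF2/Activin against 2iLif sets growth factor medium against the maintenance inhibitors and Lif. All 6 members fell, where 32.6% of the 15223 genes tested were lower and 65.9% were called in either direction. Klf4 averaged 3.80 ± 0.168 CPM in FGF2/Activin and 338 ± 8.81 CPM in 2iLif (SD, n = 3 each), a log2 fold change of -6.47 ± 0.12 (SE, adjusted p = 3.1e-16). Klf2 averaged 6.18 ± 0.93 CPM in FGF2/Activin and 261 ± 3.45 CPM in 2iLif, a log2 fold change of -5.40 ± 0.18 (adjusted p = 1.7e-13). Klf5 fell by 2.61 and Klf3 by 1.45 on the log2 scale (adjusted p = 1.9e-13 and 8.1e-12). The changes of Klf9 and Klf13 were the smallest, at -0.54 and -0.37 (adjusted p = 1e-07 and 0.0003). The median over the 6 genes was -2.03, beside -0.01 over all genes tested.

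The combination against 2iLif sets both inhibitors together against the maintenance additions. Here 3 members fell, Klf4, Klf5 and Klf3, where 23.8% of genes tested were lower and 47.6% were called in either direction. Klf4 averaged 48.3 ± 1.15 CPM in the combination and 338 ± 8.81 CPM in 2iLif, so it stood at 14.3% of its 2iLif level (log2 fold change -2.80 ± 0.08, adjusted p = 7.7e-13). Klf5 stood at 42.8% of its 2iLif level and Klf3 at 70.5% (log2 fold changes -1.22 and -0.50, adjusted p = 2.2e-09 and 4.5e-06).

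Klf2 averaged 242 ± 9.10 CPM in the combination and 261 ± 3.45 CPM in 2iLif, which is 92.6%. Its difference did not pass (log2 fold change -0.11, 95% interval -0.37 to 0.15, adjusted p = 0.48), although the 3 libraries of the combination were all below the 3 of 2iLif. Klf9 stood at 104% of its 2iLif level (interval of the log2 difference -0.05 to 0.16, adjusted p = 0.42) and Klf13 at 109% (interval -0.03 to 0.27, adjusted p = 0.17). Without replicate 2 of the combination, Klf13 was called higher (log2 fold change 0.19, adjusted p = 0.035). The median over the 6 genes was -0.31, beside 0.01 over all genes tested.

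Each inhibitor alone was set against 2iLif in the same way. In PD032, 4 members fell (Klf4, Klf5, Klf2 and Klf3), where 30.9% of genes tested were lower and 63% were called in either direction. In Aurka inh, 5 fell, the same 4 and Klf9, where 29.5% were lower and 58.4% were called in either direction. Klf4 stood at 4.23% of its 2iLif level in PD032 and 4.65% in Aurka inh (log2 fold changes -4.56 and -4.43, adjusted p = 2.7e-15 and 6.2e-15). Klf2 stood at 34.5% and 43.0% (log2 fold changes -1.53 and -1.22, adjusted p = 2.7e-08 and 4.4e-07).

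Klf5 stood at 26.5% of its 2iLif level in PD032 and 21.6% in Aurka inh, and Klf3 at 55.7% and 50.0%, with adjusted p of at most 5.6e-09 for each. Klf9 fell by 0.49 on the log2 scale in Aurka inh (adjusted p = 4.8e-07). In PD032 its log2 difference of -0.11 did not pass (95% interval -0.21 to -0.00, adjusted p = 0.071). It passed with DESeq2 (adjusted p = 0.049) and without replicate 3 of 2iLif (adjusted p = 0.031). Klf13 was not called in PD032 (-0.01, interval -0.16 to 0.14) or Aurka inh (-0.08, interval -0.23 to 0.07).

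**Figure D2:**
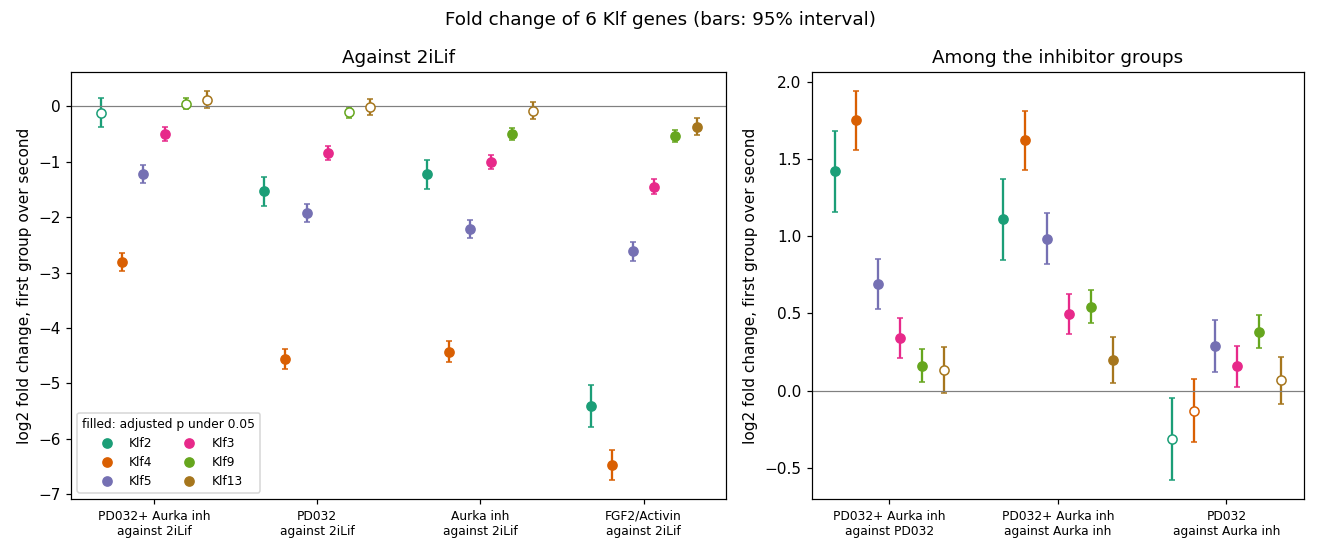
Log2 fold change of the 6 Klf genes, first group over second, from the edgeR fit, for 4 media against 2iLif (left) and among the inhibitor groups (right). Points are estimates, bars 95% intervals and filled points passed at an adjusted p under 0.05. Klf4 lies lowest in each comparison with 2iLif, from -2.80 in the combination to -6.47 in FGF2/Activin, while Klf2 moves from -0.11 to -5.40.

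The combination was then set against each inhibitor alone. Klf4, Klf2, Klf5, Klf3 and Klf9 rose against PD032, 5 of 6 members, where 20% of genes tested were higher and 43.7% were called in either direction. All 6 rose against Aurka inh, where 18.6% were higher and 34.9% were called in either direction. Klf4 averaged 48.3 ± 1.15 CPM in the combination, against 14.3 ± 2.16 CPM in PD032 and 15.7 ± 1.84 CPM in Aurka inh. These are 3.38-fold and 3.08-fold differences (log2 fold changes 1.75 ± 0.09 and 1.62 ± 0.09, adjusted p = 2.9e-10 and 2.7e-09). Klf2 averaged 242 ± 9.10 CPM in the combination, against 90.2 ± 3.41 CPM in PD032 and 112 ± 30.8 CPM in Aurka inh, which are 2.68-fold and 2.15-fold differences (adjusted p = 1.6e-07 and 4.5e-06).

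Klf5 was 1.62-fold higher in the combination than in PD032 and 1.98-fold higher than in Aurka inh (adjusted p = 2.1e-06 and 1.2e-07). Klf3 was 1.27-fold and 1.41-fold higher (adjusted p = 0.00026 and 1.2e-05). Klf9 rose 1.46-fold against Aurka inh (adjusted p = 6.5e-07) and 1.12-fold against PD032 (adjusted p = 0.016). The call against PD032 was lost with library size alone (adjusted p = 0.07), with no filter on low counts (0.053), and without replicate 3 of the combination or of PD032 (0.052 each).

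Klf13 depended most on the fit. Against Aurka inh it rose 1.15-fold (adjusted p = 0.038), with overlapping libraries. This call was lost with DESeq2 size factors, library size alone, DESeq2, voom with a spread per group and the 6 libraries alone (adjusted p from 0.054 to 0.15). It was also lost without replicate 2 or 3 of Aurka inh or replicate 1 or 3 of the combination (adjusted p from 0.11 to 0.2). Against PD032 it was not called (log2 fold change 0.13, adjusted p = 0.14). It passed with the replicate number as a block (adjusted p = 0.0079) and without replicate 2 of the combination (adjusted p = 0.029).

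PD032 against Aurka inh compares the inhibitors with each other. Klf9, Klf5 and Klf3 were higher in PD032, 3 of 6 members, where 25.8% of genes tested were higher and 45.5% were called in either direction. Klf9 averaged 162 ± 1.84 CPM in PD032 and 124 ± 7.13 CPM in Aurka inh, a 1.30-fold difference (adjusted p = 1.3e-05). Klf5 averaged 44.2 ± 3.57 CPM in PD032 and 36.1 ± 2.85 CPM in Aurka inh, a 1.22-fold difference (adjusted p = 0.0069). Klf3 passed narrowly (1.11-fold, adjusted p = 0.048). Its call was lost with DESeq2 size factors, DESeq2, no filter, voom with a spread per group and the 6 libraries alone (adjusted p from 0.067 to 0.21), and without replicate 1 or 3 of PD032 or 2 or 3 of Aurka inh (from 0.07 to 0.21).

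Klf4 and Klf13 were not called between the inhibitors, with 95% intervals of the log2 difference from -0.33 to 0.08 and from -0.08 to 0.22. Klf2 gave a log2 difference of -0.31 (95% interval -0.58 to -0.05, adjusted p = 0.054). It passed with the replicate block (log2 fold change -0.30, adjusted p = 0.014) and in some other settings, with adjusted p down to 7.8e-05. Replicate 2 of Aurka inh decided its size, since without it the difference was -0.07 (adjusted p = 0.43). In that library Klf2 was 1.55 times the mean of its fellow Aurka inh libraries, while the other 5 members were between 0.911 and 1.06 times. All 12 genes of a naive network list were higher there too, by 1.32 to 2.29 times, among them Tbx3 (2.04) and Zfp42 (1.82). The largest, Prdm14, was at only 0.728 to 3.02 CPM in Aurka inh. How many of all genes were higher in that library was not counted. In PD032, replicate 2 also stood above its fellow libraries for most of the list, as for Tbx3 (1.77) and Zfp42 (1.47). It stood below them for Nanog (0.974), Tfcp2l1 (0.939) and Prdm14 (0.949).

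The comparisons with FGF2/Activin share its 3 libraries. All 6 members were higher in the combination, where 33% of genes tested were higher and 66.8% were called in either direction. All 6 were higher in PD032 (30% higher, 59% in either direction) and 5 in Aurka inh (25% higher, 55.1% in either direction). Klf2 was 39.1-fold higher in the combination, 14.6-fold in PD032 and 18.2-fold in Aurka inh than in FGF2/Activin (adjusted p = 4.4e-13, 2.4e-11 and 1.2e-11). Klf4 was 12.7-fold, 3.76-fold and 4.13-fold higher (adjusted p = 3.1e-13, 2.9e-09 and 1.6e-09). Klf5 was 2.62-fold, 1.62-fold and 1.32-fold higher, and Klf3 1.92-fold, 1.52-fold and 1.36-fold. Klf13 was 1.4-fold, 1.28-fold and 1.22-fold higher. The adjusted p of Klf5, Klf3 and Klf13 was at most 0.0029 in these comparisons. Klf9 was 1.5-fold higher in the combination and 1.35-fold higher in PD032 (adjusted p = 3.9e-08 and 2.4e-06). In Aurka inh Klf9 was the exception (log2 fold change 0.05, interval -0.06 to 0.15, adjusted p = 0.46).

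Levels of different members were set side by side as CPM per kb of annotated exon. Klf2 was at 131 CPM per kb in the combination and 141 in 2iLif, and it led the members in each medium except FGF2/Activin, where Klf9 led at 24.9 CPM per kb. Klf4 was at 15.9 CPM per kb in the combination and 111 in 2iLif. The sum over the 6 genes was 227 ± 2.33 CPM per kb in the combination, 121 ± 4.85 in PD032, 123 ± 17.5 in Aurka inh, 53.9 ± 1.75 in FGF2/Activin and 352 ± 3.40 in 2iLif (SD, n = 3 each). Klf4 made up 6.97% of that sum in the combination, 3.85% in PD032, 4.22% in Aurka inh, 2.31% in FGF2/Activin and 31.4% in 2iLif. With the longest transcript as length instead, Klf3 levels were higher, at 20.1 in place of 9.34 CPM per kb in the combination. Klf5 levels rise too, since its longest transcript has 3352 bases and its annotated exons 5201. The sums, the shares and the order of members thus depend on the length used.

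**Figure D3:**
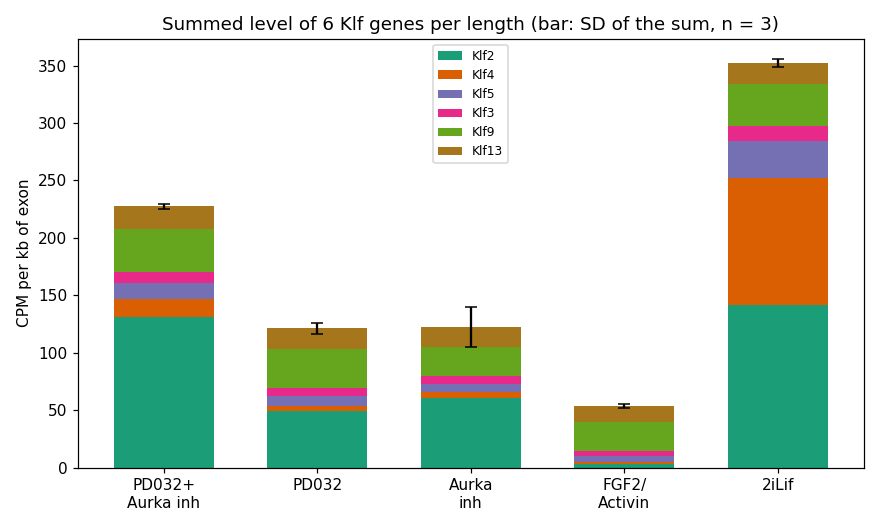
Stacked mean CPM per kb of exon of the 6 Klf genes in each medium, with a bar of 1 SD on the sum (n = 3). The combination reaches 227 CPM per kb and 2iLif 352, and the Klf4 segment is large only in 2iLif, where it is 31.4% of the sum.

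The ratio of Klf2 to Klf4 per length showed the difference between both genes within each library. It was 8.01, 8.84 and 7.96 in the combination, 10.2, 11.9 and 9.48 in PD032, 9.67, 14.9 and 10.8 in Aurka inh, 2.85, 2.22 and 3.00 in FGF2/Activin, and 1.27, 1.30 and 1.26 in 2iLif. Every library of the other media had a higher ratio than the 2iLif libraries, without overlap. An exact two-sided permutation test of the log2 ratio gave p = 0.1 for each of the 4 media against 2iLif, the smallest p that this test can give for 3 against 3 libraries, so it cannot reach 0.05 here. The ratio of the combination was also below that of PD032 and of Aurka inh without overlap (exact permutation p = 0.1 each), and PD032 and Aurka inh overlapped (exact permutation p = 0.6). These are 6 of 7 pairs at the limit of the test, and none would pass it after adjustment over the 7.

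**Figure D4:**
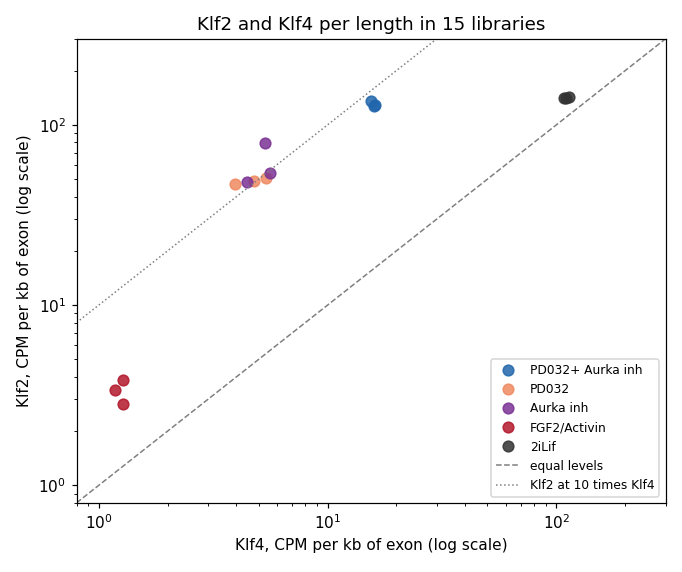
Klf2 against Klf4 in CPM per kb of exon (both axes on a log scale), 1 point per library, with lines for equal levels and for Klf2 at 10 times Klf4. The inhibitor libraries lie near the upper line, with ratios from 7.96 to 14.9, and the 2iLif libraries near the line of equal levels, with ratios from 1.26 to 1.30.

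Across the 15 libraries, log2 CPM of Klf3, Klf4 and Klf5 went together most closely, with Pearson r of 0.982 for Klf3 and Klf4, 0.984 for Klf4 and Klf5 and 0.977 for Klf3 and Klf5. Klf13 was least like them, at 0.604 with Klf5 and 0.633 with Klf4. Klf2 had its highest r with Klf3, at 0.854, then 0.849 with Klf13 and 0.817 with Klf4. The points share libraries and fall into 5 media, so these values describe group differences.

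The genes outside the family with the most similar profile were named for each member, among 9488 genes with at least 10 CPM in their highest group. Klf4 was followed most closely by Tfcp2l1, a naive pluripotency factor (r = 0.994), Slc6a8, a creatine transporter (0.991), and Zbtb7a (0.989). For Klf5 they were Tet2, a DNA demethylation enzyme (0.996), Gna13 (0.993) and Qk (0.991). For Klf2 they were Slc25a36 (0.994), Vangl1, a planar polarity gene (0.993), and Impa2 (0.992). Klf3 had Washc2 (0.996), Slc6a8 (0.990) and Irak1 (0.987), Klf9 had Uck2 (0.982), Plekhg5 (0.978) and Mov10 (0.977), and Klf13 had Kansl1 (0.977), Zzef1 (0.971) and Cep85 (0.965). Tfcp2l1 averaged 264 CPM in the combination and 1303 CPM in 2iLif. With r over the 5 group means, Klf3, Klf5 and Klf9 kept 1 of their 3 genes, and Klf2, Klf4 and Klf13 kept 0.

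Of 11 other Klf genes, 9 had enough counts to be tested, and Klf1 and Klf14 did not. Against 2iLif, 1 rose and 4 fell in the combination, 3 rose and 4 fell in PD032, 1 rose and 5 fell in Aurka inh, and 2 rose and 5 fell in FGF2/Activin. Of all genes tested, 47.6%, 63%, 58.4% and 65.9% were called in either direction in these media, in this order. Klf8, a mostly repressive relative of Klf3 that also binds CtBP, had the order of groups of Klf3 and Klf5. It averaged 59.9 ± 7.23 CPM in the combination, 30.4 ± 4.93 in PD032, 25.4 ± 2.04 in Aurka inh, 13.5 ± 0.154 in FGF2/Activin and 92.1 ± 5.54 in 2iLif. Its log2 fold change against 2iLif was -0.62 in the combination and -2.76 in FGF2/Activin (adjusted p = 9.9e-05 and 4.9e-12).

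Klf7, Klf6 and Klf17 had other orders of groups. Klf7 averaged 9.22 ± 0.968 CPM in the combination, 23.0 ± 4.05 in PD032, 8.99 ± 2.69 in Aurka inh, 29.8 ± 0.356 in FGF2/Activin and 8.16 ± 1.04 in 2iLif. It rose against 2iLif in PD032 and FGF2/Activin (log2 fold changes 1.5 and 1.87, adjusted p = 1.8e-06 and 1e-07). Klf6 was highest in PD032, at 111 ± 11.7 CPM, and next in the combination, at 87.3 ± 11.9 CPM. It averaged 60.8 ± 4.58 CPM in Aurka inh, 44.2 ± 2.51 in FGF2/Activin and 71.3 ± 3.47 in 2iLif. Klf17 passed against 2iLif in PD032, Aurka inh and FGF2/Activin, but at group means no higher than 1.15 CPM.

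**Figure D5:**
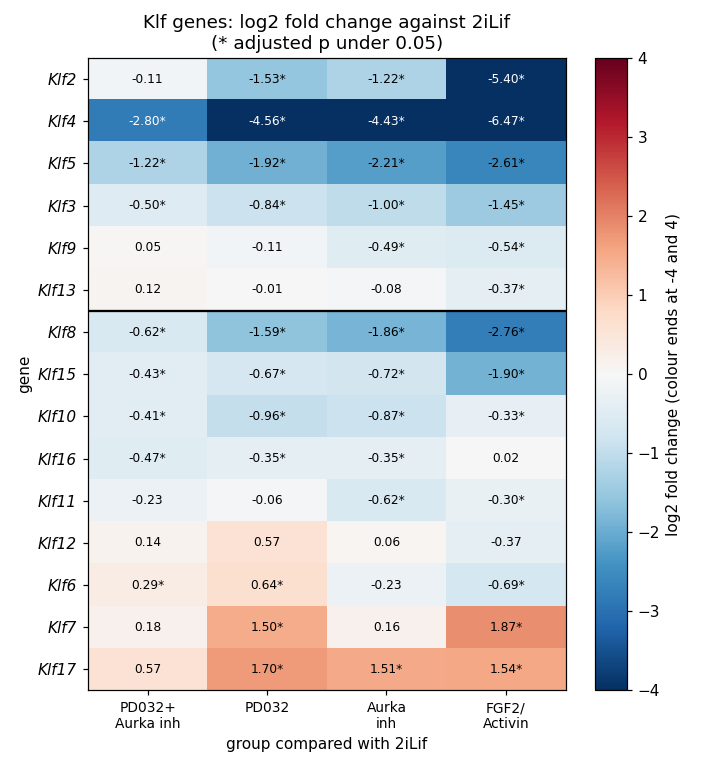
Log2 fold change against 2iLif of the 6 Klf genes (above the line) and of 9 other tested Klf genes (below it), one column per medium, with a star at an adjusted p under 0.05. Klf8, Klf10 and Klf15 are lower in each medium, as Klf3, Klf4 and Klf5 are, while Klf7 is higher in PD032 (1.5) and FGF2/Activin (1.87). Klf10 averages 77.8 CPM in 2iLif and at most 62.1 CPM in any other medium. Klf11 also averages lower in each medium, with libraries of PD032 and 2iLif overlapping.

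The Sp genes form the nearest related family and bind the same GC boxes. Of 9, 6 were tested, and against 2iLif 2 rose and 3 fell in the combination, 1 rose and 3 fell in PD032, 2 rose and 4 fell in Aurka inh, and 1 rose and 4 fell in FGF2/Activin. The shares of all genes tested called in either direction were 47.6%, 63%, 58.4% and 65.9%, in the same order. Sp1 averaged 231 ± 26.9 CPM in the combination, 263 ± 20.3 in PD032, 222 ± 20.0 in Aurka inh, 265 ± 5.21 in FGF2/Activin and 267 ± 12.3 in 2iLif. Sp5, known as a Wnt target, had 65 to 115 counts in the combination, 204 to 282 in Aurka inh and 965 to 1019 in 2iLif, 0 counts in the PD032 libraries, and 1 count over those of FGF2/Activin. Sp8 was highest in Aurka inh, at 16.3 ± 3.42 CPM, against 3.51 ± 0.404 CPM in 2iLif (log2 fold change 2.22, adjusted p = 4.5e-08).

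A list of 12 further naive network genes was counted beside the members. Against 2iLif, 10 fell and 1 rose in the combination, 10 fell and 1 rose in PD032, 11 fell and 1 rose in Aurka inh, and 12 fell in FGF2/Activin. Of all genes tested, 23.8%, 30.9%, 29.5% and 32.6% fell in these media, in this order. Their median log2 fold change was -0.70 in the combination, -2.20 in PD032, -2.48 in Aurka inh and -3.80 in FGF2/Activin, while that of all genes tested stayed between -0.01 and 0.01. In the combination the largest changes were those of Gbx2 (-5.49), Tfcp2l1 (-2.30), Dppa3 (1.88) and Tcl1 (-1.11), with adjusted p of at most 0.00016. Gbx2 was low in every inhibitor group, at 0.569 CPM in the combination, 1.90 in PD032 and 0.846 in Aurka inh. It averaged 17.7 CPM in FGF2/Activin and 26.5 in 2iLif, so its levels split as the naming forms do. Against PD032 the combination had 8 of the 12 higher and 2 lower, and against Aurka inh 10 higher and 0 lower, where 20% and 18.6% of all genes tested were higher.

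Genes of the Lif and STAT3 axis bear on the known route to Klf4. Stat3, the transcription factor of this route, stood at 43.2, 36.6 and 43.4 CPM in the combination, 41.1, 34.5 and 40.6 CPM in PD032, 31.1, 25.0 and 28.0 CPM in Aurka inh, 34.8, 34.3 and 35.8 CPM in FGF2/Activin, and 191, 185 and 184 CPM in 2iLif. Socs3, a feedback inhibitor that STAT3 induces, stood at 0.184, 0.366 and 0.167 CPM in the combination, 4.89, 1.503 and 6.00 CPM in PD032, 2.96, 2.20 and 3.07 CPM in Aurka inh, 2.23, 2.36 and 2.17 CPM in FGF2/Activin, and 131, 133 and 133 CPM in 2iLif. Both genes were highest in the 2iLif libraries, without overlap with any other group. Among the other media, Socs3 was lowest in the combination, where Klf4 was higher than in PD032, Aurka inh and FGF2/Activin. Stat3 averaged highest there among these media, as Klf4 did, at 41.0 CPM against 38.7 CPM in PD032, with overlapping libraries. A part of either gene in the Klf4 levels was not tested. Stat3 fell by 2.18 on the log2 scale in the combination against 2iLif (adjusted p = 8.8e-12).

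The receptor genes had other orders of group means, that of Klf5 for Lifr and that of Klf4 for Il6st. Lifr averaged 87.0 ± 2.97 CPM in the combination, 67.9 ± 6.73 in PD032, 55.7 ± 7.79 in Aurka inh, 18.6 ± 1.505 in FGF2/Activin and 103 ± 5.95 in 2iLif. Il6st, the shared receptor subunit, averaged 234 ± 13.04 CPM in the combination and 274 ± 10.95 CPM in 2iLif (log2 fold change -0.23, adjusted p = 0.016).

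Of 12 genes for Klf cofactors and turnover, 3 rose and 1 fell in the combination against 2iLif, and 3 rose and 2 fell in FGF2/Activin. These are smaller shares than the 47.6% and 65.9% of all genes tested that were called in either direction. In PD032 5 rose and 2 fell, and in Aurka inh 4 rose and 3 fell. Those shares are close to the 63% and 58.4% of all genes tested. Ctbp2, a co-repressor that Klf3 and Klf8 recruit, averaged 346 ± 3.52 CPM in FGF2/Activin and 216 ± 11.3 CPM in 2iLif (log2 fold change 0.68, adjusted p = 1.6e-07). Btrc, a ubiquitin ligase subunit, rose in the combination by 0.58 on the log2 scale (adjusted p = 1.3e-06). Wwp1, a ubiquitin ligase known to act on Klf2 and Klf5, was not called against 2iLif in any medium.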

How the data were processed

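Poly(A)-selected RNA was made into libraries with a directional kit, per the labels. STAR, DESeq2 and mm10 are named in the submitters' processing notes. The counting tool, its strand setting and the annotation are unstated in the labels used. The authors deposited raw counts per gene and a table of normalized values on the log2 scale. Tests start from the counts, and the deposited log2 table served only as a check: its differences had the same sign in 60 of 60 member comparisons.

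Of 49585 genes, 49326 were matched by identifier in GENCODE M21. In R 4.3.3, edgeR 4.0.16 (TMM scaling, filterByExpr, glmQLFit and glmQLFTest) fitted all 15 libraries with a term per group, so that the groups share one estimate of the spread, and p-values were adjusted by Benjamini-Hochberg over 15223 genes in each of 10 comparisons (threshold 0.05). CPM are counts over TMM-scaled totals. For log2 CPM, a prior count of 2 was added. Limma 3.58.1 (voom) and DESeq2 1.42.0 were alternatives. The fit was also run on simulated counts, with the same dispersion for all genes and libraries drawn independently. Same-numbered inhibitor libraries were not independent here, so that run does not cover them, and no result rests on it.

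The members and the gene lists were chosen with earlier results of these data known. By rule, the text names all 6 members in each comparison and may name any tested Klf or Sp gene, up to 4 genes of each other list with the largest change, and the 3 genes most like each member. The exceptions, chosen after their values were seen, are Wwp1, Zfp42, Prdm14, Nanog and the marker genes given by name.

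Same-numbered libraries of the 3 inhibitor groups deviated together (r from 0.17 to 0.483 over all 9 pairs), so a fit with the number as a block was made. Their 18 pairs with different numbers had r from -0.402 to 0.221, so the 2 ranges overlapped. Between same-numbered libraries of FGF2/Activin and 2iLif r lay from -0.026 to 0.00713.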

Additional observations from a re-analysis of the deposited data

How the results depend on the processing

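Over 60 member comparisons, 13 alternatives each gave 780 values: 743 kept direction and side of the threshold, 22 lost a call, 11 gained one and 4 changed sign. All sign changes were of Klf13 in PD032 against 2iLif, which was not called in any of them. Its log2 fold change was -0.01 in the fit reported and 0.0634 with library size alone, 0.0171 with the 6 libraries alone, 0.0125 with the replicate block in those 6, and from -0.0517 (without PD032 replicate 1) to 0.0621 (without PD032 replicate 2) when 1 library was left out. The cause was not tested.

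Without 1 library, the number of members called against 2iLif was 3 to 4 in the combination, 4 to 5 in PD032, 5 in Aurka inh and 6 in FGF2/Activin. It was 4 to 6 for the combination against PD032, 5 to 6 against Aurka inh, and 2 to 4 for PD032 against Aurka inh. With the replicate number as a block, Klf13 in the combination against PD032 (log2 fold change 0.13, adjusted p = 0.0079) and Klf2 in PD032 against Aurka inh (-0.30, adjusted p = 0.014) gained calls, and no other member call among the inhibitor groups changed. With the 6 libraries alone, 3480 in place of 5311 genes were called for the combination against Aurka inh. The lowest counts of a member were those of Klf4 in FGF2/Activin, 55 to 61 per library.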

Other observations

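Klf14 was too low to be tested. It was at 0 counts in the 2iLif libraries and at 0, 0.104 and 0.125 CPM in the combination, 0.686, 0.43 and 0.514 CPM in PD032, 0.227, 0.252 and 0.312 CPM in Aurka inh, and 0.459, 0.574 and 0.447 CPM in FGF2/Activin.

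Klf15, which is no member, had the order of group means of Klf3 and Klf5. It averaged 48.8 ± 3.81 CPM in the combination, 41.6 ± 5.70 in PD032, 40.1 ± 4.8 in Aurka inh, 17.7 ± 1.37 in FGF2/Activin and 65.9 ± 3.38 in 2iLif. Klf16 was lower than 2iLif in the 3 inhibitor groups, at 59.9 ± 3.02 CPM in the combination, 65.2 ± 2.18 in PD032 and 65.2 ± 3.64 in Aurka inh, against 84.3 ± 0.283 CPM in FGF2/Activin and 83.1 ± 1.66 in 2iLif. That split is also the split of the naming styles, and both cannot be told apart.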
